A study of Populus ussuriensis with 12 samples.

Results

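Roots of *Populus ussuriensis* that overexpressed PuC3H35 were compared with wild-type (WT) roots after both had been kept on medium with 6% PEG6000. The comparison was defined by the tissue label of each library and took in 6 of the 12 libraries of the series, which were libraries 1, 3 and 4 of the overexpressor (PuC3H35-OE) and libraries 1, 2 and 3 of WT. Of 35907 gene identifiers listed, 24976 had at least 1 FPKM in 3 or more of the 12 libraries and were tested. FPKM is a read or fragment count divided by the gene's length and the library's total. The other 6 libraries, 3 of each genotype on control medium, are used where the difference on PEG is set beside the difference without PEG.

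PEG6000 is a polyethylene glycol polymer that holds water in the medium and lowers its water potential, so that roots meet a drought-like stress. Plant roots answer such stress by changing the expression of genes for water transport, cell walls, protective proteins and hormone signalling, many of them under the control of abscisic acid. PuC3H35 belongs to the CCCH zinc finger proteins, a family in which cysteine and histidine residues hold zinc and which includes proteins that bind RNA or DNA. Several plant members of the family are known as regulators of stress responses. The question put by the design is what overexpression of such a protein does to root gene expression under this stress.

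Plants were propagated in vitro from stem segments on half-strength Murashige and Skoog medium. They were 7 days old at transfer, and RNA came from roots collected 7 days later. All 4 groups shared this handling and differed in genotype and in PEG. The labels name no promoter for the transgene, do not say whether library numbers stand for separate transgenic lines, and do not say that libraries came from separate plants. The p-values below therefore rest on library-to-library spread, part of which may be technical, and overexpression of the gene cannot be told apart from other features of the transgenic material. No identifier comes with a gene name in the files (0 of 35907), so the level of PuC3H35 and the markers of root tissue were not checked, and gene families or pathways could not be counted. Genes are given by identifier only.

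The 6 PEG libraries held 10566925 to 11722648 reads each, as recovered from the FPKM values, with at least 1 read for 30634 to 31187 identifiers. All replicate pairs differed by more than sampling noise. The mean chi-square per gene was 3.23 to 6.69 for pairs of WT libraries. In PuC3H35-OE it was 4.83 between libraries 1 and 3, and 12.56 and 15.22 where library 4 was one of the pair, so library 4 stood apart from the others of its group. The median SD of a gene within a group was 0.129 on the log2(FPKM + 1) scale in WT on PEG and 0.166 in PuC3H35-OE on PEG.

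On PEG, overexpression went with many modest differences and with a smaller number of large ones that were mostly reductions. By limma with Benjamini-Hochberg adjustment, 3620 genes (14.5% of those tested) differed at an adjusted p under 0.05, and such genes are said to be called. Of these, 2296 (9.19%) were higher and 1324 (5.3%) lower in PuC3H35-OE. The higher genes had a median log2 difference of 0.61, and 90% of them lay between 0.33 and 1.25. The lower genes had a median of -0.77, and 90% of them lay between -2.33 and -0.35. Over all tested genes the median was 0.08. Differences here and below are PuC3H35-OE minus WT on the log2(FPKM + 1) scale, on which changes of weakly expressed genes come out too small.

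The large differences were unevenly divided. A difference of 2-fold or more was found in 308 higher and 418 lower genes, and one of 4-fold or more in 7 higher and 103 lower genes. The excess of reductions among 4-fold differences was present under each scaling and filter tried, from 6 against 114 with median-ratio scaling to 47 against 163 with a pseudocount of 0.1. At 2-fold it was reversed by that pseudocount, with 700 higher and 468 lower, and was gone without WT library 2 (438 and 430). Which direction held more calls in all depended on the scaling. Higher genes made up 63.4% of calls on the FPKM as deposited, 56.7% after upper-quartile scaling (1919 higher, 1464 lower) and 44.3% after median-ratio scaling (1449 higher, 1824 lower). By limma-voom on recovered reads they made up 43.9% (1413 higher, 1805 lower). These scalings moved the median difference of all genes by -0.029, -0.079 and -0.069.

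**Figure D1:**
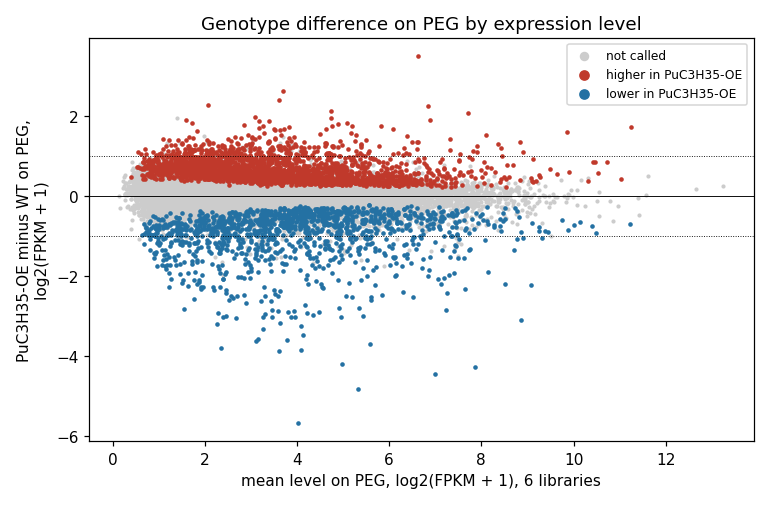
Each point is 1 of 24976 tested genes, placed by its mean level over the 6 PEG libraries (log2 of FPKM + 1, x axis) and by the PuC3H35-OE minus WT difference on PEG (y axis); red genes were called higher, blue genes called lower, and dotted lines mark 2-fold. The blue cloud reaches much farther from 0 than the red one, with 103 blue and 7 red genes past 4-fold.

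Calls were more frequent among strongly expressed genes. Under 1 FPKM on average over the 6 PEG libraries, 4.73% of 1373 genes were higher and 1.68% lower. At 10 to 20 FPKM the shares were 9.7% and 5.71% of 4484 genes, and at 100 FPKM or more 12.1% and 13.4% of 1043 genes. The median standard error (SE) of the difference was 0.21 in the lowest of these classes and 0.12 in the other two. Of the 100 most abundant genes on PEG, with means of 507 to 9840 FPKM, 20 were higher and 17 lower. Over all tested genes the shares were 9.19% and 5.3%. The differences of the called genes among the 100 ran from 0.35 to 1.73 for the higher and from -4.27 to -0.59 for the lower genes.

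**Figure D2:**
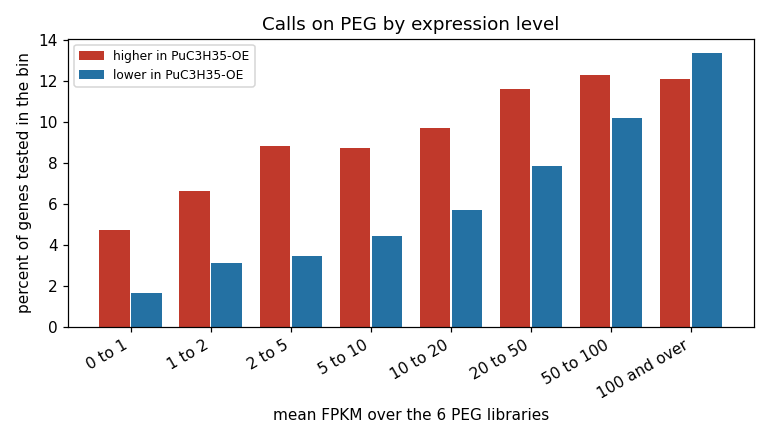
Bars give the percent of tested genes in each class of mean FPKM over the 6 PEG libraries (x axis) that were called higher (red) or lower (blue) in PuC3H35-OE on the FPKM as deposited. Both shares are smallest under 1 FPKM (4.73% and 1.68%), and lower calls exceed higher calls only at 100 FPKM and over (13.4% against 12.1%); the balance between directions moves with the scaling.

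The gene with the largest rise on PEG was Potri.001G266700.v3.1. It stood at 28.5, 28 and 27.8 FPKM in WT libraries 1, 2 and 3, and at 317, 321 and 353 FPKM in PuC3H35-OE libraries 1, 3 and 4. Every overexpressor library was thus far above every WT library, and the spread within each group was narrow. The log2 difference was 3.51 (SE 0.143, limma adjusted p 2.94e-07), the smallest p of all genes tested. On control medium the gene was also higher in PuC3H35-OE, at 496, 299 and 428 FPKM against 34.8, 36 and 35.6 (log2 difference 3.46, limma adjusted p 3.49e-07). The interaction, which is the difference on PEG minus the difference on control medium, was 0.05 (SE 0.202, limma adjusted p 0.923).

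Potri.003G215001.v3.1 was next among the rises. It had 3.55, 7.95 and 2.39 FPKM in the WT libraries and 40.2, 24.2 and 31.2 FPKM in the overexpressor libraries on PEG, which do not overlap. Its log2 difference was 2.64 (SE 0.532, limma adjusted p 0.00703). On control medium it also differed, by 3.19 (limma adjusted p 0.00215), but the overexpressor libraries were widely spread there, at 37.4, 19.4 and 109 FPKM. Its interaction was -0.54 (limma adjusted p 0.74).

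The largest reduction was in Potri.004G067600.v3.1. Its levels were 170, 59.4 and 148 FPKM in WT on PEG and 0.136, 0.546 and 5.61 FPKM in PuC3H35-OE on PEG. The last 3 values rest on 1, 4 and 40 recovered reads, and library 4 was the highest of the overexpressor libraries. The log2 difference was -5.67 (SE 0.547, limma adjusted p 8.18e-05). On control medium the gene was close to undetected in both genotypes, at 0 to 0.563 FPKM over the 6 libraries, and the difference of -0.21 did not pass the test (limma adjusted p 0.819).

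Potri.011G110300.v3.1 followed. It had 319, 126 and 240 FPKM in WT on PEG and 3.9, 3.53 and 18.3 FPKM in PuC3H35-OE on PEG. As in the gene before, WT library 2 was the lowest of its group and overexpressor library 4 the highest of its own, and the groups did not overlap. The log2 difference was -4.83 (SE 0.46, limma adjusted p 7.66e-05). All 6 control libraries were at or under 0.108 FPKM, and the difference there was -0.08 (limma adjusted p 0.928). For these 2 genes the interaction was called, at -5.46 and -4.75 (limma adjusted p 0.00171 and 0.00146). With limma-voom on recovered reads neither interaction was called, at -6.03 and -3.8 with adjusted p of 0.283 and 0.537, and over all alternatives the adjusted p ran from 9.07e-05 and 7.86e-05 up to these values.

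**Figure D3:**
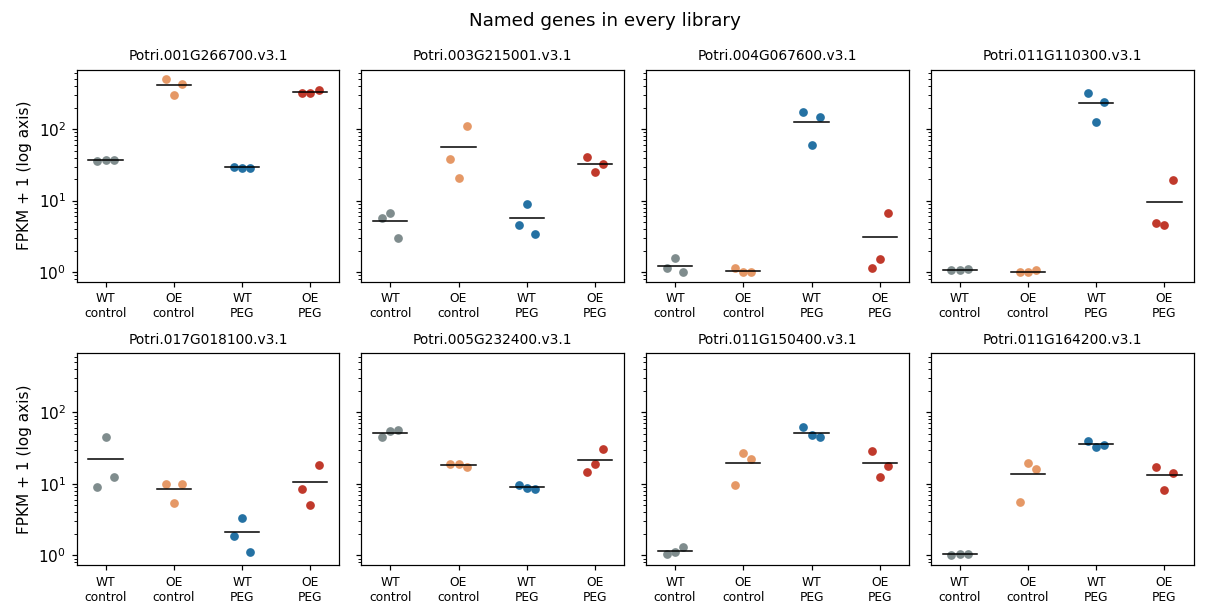
Points are single libraries and lines are group means, as FPKM + 1 on a log axis, for WT and PuC3H35-OE (OE) on control medium and on PEG, with 3 libraries a group. The genes in the upper row have the largest differences on PEG, such as 28.1 against 331 FPKM for Potri.001G266700.v3.1, and those in the lower row have among the largest differences between the media.

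Few genes were near silent on PEG in one genotype and expressed in the other. With under 1 FPKM in every library of one genotype and at least 2 FPKM in every library of the other, 31 genes were low in PuC3H35-OE and 9 were low in WT. With at least 5 FPKM asked of every library of the other genotype, 2 were low in PuC3H35-OE and 0 in WT. Both were picked after their values were seen. Potri.012G126800.v3.1 had 35.4, 7.48 and 21 FPKM in WT and 0.385, 0 and 0.852 FPKM in PuC3H35-OE on PEG. Its log2 difference was -3.79 (SE 0.4, limma adjusted p 1.33e-04), and on control medium it was at or under 0.057 FPKM in all 6 libraries. Potri.018G139850.v3.1 had 6.58, 5.77 and 5.02 FPKM in WT and 0, 0.462 and 0.949 FPKM in PuC3H35-OE (log2 difference -2.25, SE 0.381, limma adjusted p 0.00268). That gene had a recovered length of 187 bases and 11 to 13 recovered reads per WT library, and with a pseudocount of 0.1 its adjusted p was 0.0523.

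Many of the genes that differed on PEG also differed, in the same direction, on control medium. The control-medium comparison shares no library with the PEG comparison. Both take a gene's spread from the same fit of 12 libraries, however, which can raise the number of genes called on both media. The size of this effect was not tested. On control medium 5080 genes were called, 20.3% of those tested, with 3191 (12.8%) higher and 1889 (7.56%) lower in PuC3H35-OE. Here too the direction with more calls depended on the scaling. The shares were 9.13% higher and 10.4% lower after median-ratio scaling, and 8.86% and 11.3% by limma-voom. The counts that follow are from the FPKM as deposited. Of the 2296 genes higher on PEG, 853 (37.2%) were also higher on control medium, and these were 26.7% of the genes higher there. Of the 1324 genes lower on PEG, 303 (22.9%) were also lower on control medium, which was 16% of the genes lower there. On PEG the genes shared by both media had median log2 differences of 0.58 and -0.56, and on control medium 0.6 and -0.61.

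Among large differences, rises and reductions were shared with control medium to unlike extents, though the difference between the shares was not tested. Of the 308 genes higher on PEG by 2-fold or more, 136 (44.2%) were also higher on control medium, against 12.8% of all genes, and their median control-medium difference was 0.55. Of the 418 genes lower on PEG by 2-fold or more, 44 (10.5%) were also lower on control medium, against 7.56% of all genes, 47 (11.2%) were higher there, and their median control-medium difference was 0.02. Over 19 alternatives the share ran from 30% to 52.4% for the higher set, where 7.64% to 15.5% of all genes were higher, and from 6.79% to 15.3% for the lower set, where 4.62% to 11.3% of all genes were lower. The lower set was close to all genes with limma-voom (11.6% against 11.3%) and farther from them without WT library 3 on PEG (12.7% against 6.62%). For the 103 genes lower by 4-fold or more the median difference was -2.51 on PEG and 0.02 on control medium. Of them, 89.3% were not called on control medium, against 79.7% of all tested genes. Their median level in single control libraries was 0.508 to 0.932 FPKM. It was 1.5 to 2.57 FPKM for the 418 lower genes and 7.65 to 13.9 FPKM for the 308 higher genes. Low levels leave little room for a lower call on control medium, and their part in these shares was not tested.

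The interaction was called for 1873 genes, 7.5% of those tested. It was called with a negative sign for 281 of the 418 genes with 2-fold or larger reductions on PEG (67.2%) and with a positive sign for 81 of the 308 with rises of that size (26.3%). Because the interaction uses the same PEG libraries that chose these genes, both shares are raised by the choice, and 4% and 3.5% of all tested genes had a negative or positive call. Over the alternatives the shares ran from 43.3% to 70.6% and from 13.3% to 34.7%. Calls in opposite directions on the media were carried by 77 genes higher on PEG and lower on control medium, and by 126 genes lower on PEG and higher on control medium. These were 3.35% of the genes higher on PEG and 9.52% of those lower on PEG, both under the 7.56% and 12.8% of all tested genes that were lower and higher on control medium.

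**Figure D4:**
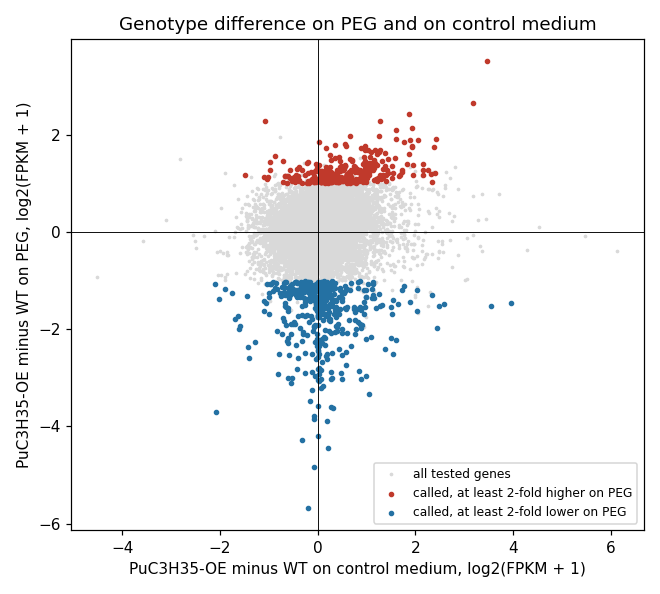
Each point is a tested gene, placed by the PuC3H35-OE minus WT difference on control medium (x axis) and on PEG (y axis), both in log2(FPKM + 1) from libraries that are not shared. Called genes higher on PEG by 2-fold or more (red) have a median control-medium difference of 0.55, and those lower by 2-fold or more (blue) lie on both sides of 0 with a median of 0.02.

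The levels of these sets in single libraries show where the differences on PEG lie. The 418 genes reduced by 2-fold or more had a median of 1.5, 2.26 and 1.77 FPKM in the WT control libraries and of 2.43, 2.57 and 2.15 FPKM in the overexpressor control libraries. On PEG their medians were 23.1, 18.3 and 21.1 FPKM in WT and 5.31, 4.55 and 5.61 FPKM in PuC3H35-OE. Low on control medium in both genotypes, they were several times higher in WT on PEG than in any overexpressor library. They held 3.88% to 5.26% of the summed FPKM of the tested genes in WT on PEG and 1.15% to 1.54% in PuC3H35-OE on PEG. On control medium the share was 0.858% to 0.879% in WT and 0.719% to 0.76% in PuC3H35-OE. In whole roots, fewer cells of a type and less RNA per cell cannot be told apart.

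The 308 genes raised by 2-fold or more showed another order. Their medians were 3.56, 5.3 and 4.13 FPKM in WT on PEG and 10.9, 12.7 and 12.5 FPKM in PuC3H35-OE on PEG. On control medium they stood at 7.65, 9.44 and 8.53 FPKM in WT and at 13.9, 13.2 and 13.9 FPKM in PuC3H35-OE. The overexpressor libraries were thus above the WT libraries on both media, and the distance was larger on PEG, where the WT medians were lowest. The PEG values of both sets are descriptions, since the genes were chosen on those libraries. The control libraries entered the choice through the filter and each gene's spread in the fit of 12 libraries. Their levels are therefore not fully independent of the choice.

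**Figure D5:**
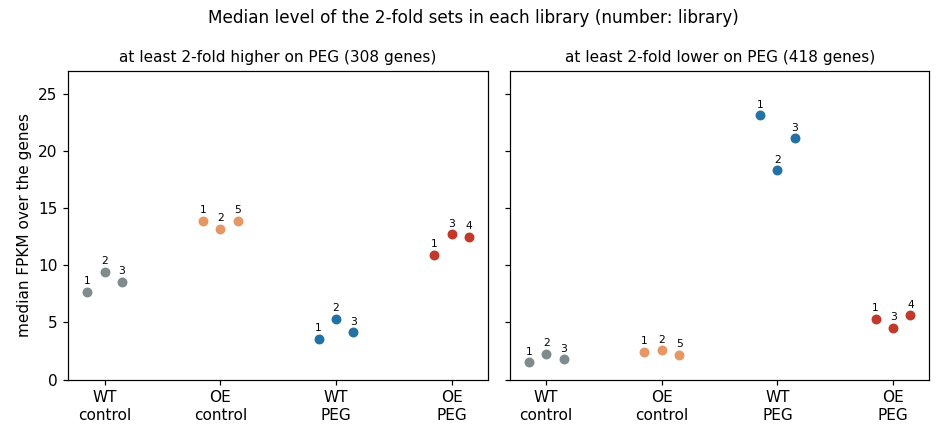
Points give the median FPKM (y axis, from 0) of the 308 higher and the 418 lower genes (2-fold or more, PuC3H35-OE against WT on PEG) in each of the 12 libraries, numbered as in the labels. The lower set is at 1.5 to 2.57 FPKM in all control libraries, 18.3 to 23.1 in WT on PEG and 4.55 to 5.61 in PuC3H35-OE on PEG.

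Among genes called both on PEG and in the interaction, and not described above, the strongest interactions were taken for a closer description. This choice was made after the values were seen. Potri.005G232400.v3.1 had 44.1, 53.2 and 56 FPKM in WT and 17.7, 17.8 and 16.5 FPKM in PuC3H35-OE on control medium. On PEG the order was turned, with 8.77, 7.89 and 7.58 FPKM in WT and 13.8, 18.1 and 29.4 FPKM in PuC3H35-OE. The differences were -1.5 on control medium (limma adjusted p 6.08e-04) and 1.18 on PEG (limma adjusted p 0.00277), and the interaction was 2.68 (SE 0.283, limma adjusted p 3.93e-04). These 3 calls were made under each alternative run.

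Potri.017G018100.v3.1 also had a positive interaction, of 3.36 (SE 0.856, limma adjusted p 0.0349), with scattered libraries. On control medium it had 8.07, 44.3 and 11.6 FPKM in WT and 8.89, 4.48 and 9.1 FPKM in PuC3H35-OE, which overlap. On PEG it had 0.89, 2.3 and 0.115 FPKM in WT and 7.51, 4.07 and 17.4 FPKM in PuC3H35-OE (log2 difference 2.28, SE 0.605, limma adjusted p 0.0266). The PEG call was lost without WT library 1 or 3, at adjusted p of 0.0808 and 0.114, and without overexpressor library 1 or 4, at 0.0565 and 0.0872. It was also lost with limma-voom (adjusted p 0.158), and over its 14 alternatives the adjusted p ran from 0.0212 to that value. The interaction was called under 8 of 19 alternatives, with adjusted p from 0.0219 to 0.107, and was lost among others with no filter (0.0606) and with limma-voom (0.107). It was also lost without WT control library 2 or 3 (0.0553 and 0.0513), without overexpressor control library 1, 2 or 5 (0.0529, 0.0704 and 0.0546), without WT library 1 or 3 on PEG (0.0824 and 0.0887) and without overexpressor library 1 or 4 on PEG (0.0551 and 0.0697).

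Among the genes not described above, the most negative interactions were in Potri.011G150400.v3.1 and Potri.011G164200.v3.1, which had similar values. Potri.011G150400.v3.1 was at or under 0.303 FPKM in WT and at 8.71, 26.3 and 21 FPKM in PuC3H35-OE on control medium. On PEG it had 61.2, 47 and 43.9 FPKM in WT and 27.7, 11.5 and 16.8 FPKM in PuC3H35-OE. Higher in the overexpressor on control medium by 3.96 (limma adjusted p 5.58e-05), it was lower there on PEG by a log2 difference of -1.46 (limma adjusted p 0.0171), with an interaction of -5.42 (SE 0.498, limma adjusted p 2.03e-04).

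Potri.011G164200.v3.1 was at or under 0.0625 FPKM in WT and at 4.64, 18.8 and 15 FPKM in PuC3H35-OE on control medium. On PEG it had 39.2, 32.2 and 34.4 FPKM in WT and 16.2, 7.28 and 13 FPKM in PuC3H35-OE. The differences were 3.55 on control medium (limma adjusted p 1.92e-04) and -1.52 on PEG (limma adjusted p 0.0205), and the interaction was -5.07 (limma adjusted p 3.93e-04). In both genes the overexpressor libraries took values of a like range on either medium, while the WT libraries went from near 0 to the highest level of the 4 groups. The PEG differences were the less firm part. Without WT library 1 their adjusted p was 0.0751 and 0.0772, and without overexpressor library 3 it was 0.07 and 0.0824. For Potri.011G164200.v3.1 it was 0.0644 without WT library 3.

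The PEG libraries of a genotype did not contribute equally. In 1433 of the 2296 higher genes (62.4%) and 798 of the 1324 lower genes (60.3%), WT library 2 was the WT library nearest to the overexpressor mean, and for the 418 genes with reductions of 2-fold or more this share was 68.7%. Of the overexpressor libraries, library 1 was nearest to the WT mean in 975 (42.5%) of the higher genes. Library 4 was nearest in 587 (44.3%) of the lower genes. Such shares were not counted over all tested genes. Among the 418 genes, overexpressor library 4 was nearest to the WT mean in 222 (53.1%), library 1 in 132 and library 3 in 64. The median difference from the WT mean was nevertheless -1.39, -1.68 and -1.48 in libraries 1, 3 and 4. In WT libraries 1, 2 and 3 the median difference of these genes from the overexpressor mean was 1.63, 1.36 and 1.5. In place of 3620 genes, 1779 were called without WT library 1, 1746 without WT library 3 and 2157 without overexpressor library 3, and of these 1753, 1727 and 2061 were among the 3620. The loss was smaller without WT library 2, with 3181 called and 2821 of them among the 3620. Without overexpressor library 1 these counts were 2773 and 2532. Without overexpressor library 4, which stood apart, 2887 genes were called, with 289 rises and 429 reductions of 2-fold or more. Of the genes called on PEG, 2273 higher and 1321 lower genes had no overlap between the 3 libraries of each genotype. The calls were made on these same libraries, so the lack of overlap largely follows from the choice and adds no support. Over all tested genes, 22.6% lay without overlap above WT, 12.4% below WT and 35% in either direction.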

How the data were processed

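RNA was sequenced from roots in 12 libraries, 4 groups of 3, and groups were taken from the tissue label. The authors deposited 1 table per library with 1 value per gene identifier. The header names no unit. The deposited values were taken as FPKM. Scaled for depth and for a length fitted to each gene, 100% of 370737 values above 0 were whole reads within 0.01 read. Each length was chosen to meet this limit, so the share follows in part from the choice. For 16517 genes a length was also derived from the common step of their values, and 99.98% of these lengths were whole bases within 0.002. Other units that divide a count by gene length could give the same picture. Reads and fragments cannot be told apart this way. Libraries were prepared with an Illumina TruSeq kit after CTAB extraction, per the labels' protocols. Bowtie2 2.2.3 and HISAT2 2.1.0 are named, without roles, in the submitters' processing notes. The counting tool, annotation, genome build and strand handling are not stated in the sources at hand, so reads of near-identical or overlapping genes may be shared between identifiers.

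Genes that reached 1 FPKM in no fewer than 3 libraries were tested on log2(FPKM + 1) with limma 3.58.1 in R 4.3.3, using its trended empirical Bayes variance, as 1 fit of 4 group means to 12 libraries with 8 residual degrees of freedom. Tests were two-sided, p-values were adjusted by Benjamini-Hochberg over all tested genes and called under 0.05. SE is limma's moderated standard error. No factor between libraries was applied. Contrasts were PuC3H35-OE minus WT on PEG, the same on control medium, and their difference (interaction). Recovered reads served for depth, gene length and the limma-voom alternative, with trimmed-mean (TMM) factors. The recovery and the limma fit were run on simulated data as a check of the code. For the fit, all genes were simulated with the same dispersion and no library stood apart, unlike in these data. That check therefore does not show the error rate of the calls given here. Named genes are the 2 largest rises and 2 largest falls among called genes with at least 5 FPKM on average in the higher group and no overlap on PEG. For the interaction the same limits were applied to called genes not yet named, with the mean taken in the highest of the 4 groups. The comparison, the rules and the lists were chosen with earlier results of these data known. Lists defined by product descriptions were not counted, since 0 identifiers are annotated. Alternatives were another pseudocount, other filters, other scalings, a fit of the PEG libraries alone, a replicate block and leaving out single libraries.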

Additional observations from a re-analysis of the deposited data

Results flagged for a closer look

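Results are given here where the genotype difference itself differed between PEG and control medium by the limma interaction test. Groups of 3 libraries are too small for a test of single libraries that lie far from the rest. Of the 3620 genes called on PEG, 920 had a called interaction, as had 7.5% of all tested genes. The interaction uses the PEG libraries that chose these genes, which raises the count. The same count was 421 without WT library 1 on PEG, 494 without WT library 3 on PEG and 582 without overexpressor library 3 on PEG. By direction, 387 of the 2296 genes higher on PEG (16.9%) had a more positive difference there than on control medium, as had 3.5% of all tested genes. A more negative difference was called for 515 of the 1324 lower genes (38.9%), and for 4% of all tested genes.

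Of the genes described above, 7 had a called interaction. It was -5.46 for Potri.004G067600.v3.1, -4.75 for Potri.011G110300.v3.1 and -3.71 for Potri.012G126800.v3.1, all of which were near 0 FPKM in the control libraries of both genotypes. With limma-voom on recovered reads none of these 3 was called, with adjusted p of 0.283, 0.537 and 0.474, and their adjusted p started at 9.07e-05, 7.86e-05 and 1.9e-04 over the other alternatives. The interaction was -5.42 for Potri.011G150400.v3.1 and -5.07 for Potri.011G164200.v3.1, which were called under each of 19 alternatives. It was 3.36 for Potri.017G018100.v3.1, called under 8 of 19 alternatives, and 2.68 for Potri.005G232400.v3.1, called under all 19.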

How the results depend on the processing

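The number of genes called on PEG stayed within 1.5 times of 3620 under other filters, pseudocounts and scalings and in a fit of the 6 PEG libraries (2799 to 3489). It fell to 2174 with a replicate block and ran from 1746 to 3181 over the 6 fits without 1 PEG library. The percent of calls that were higher, 63.4%, was 66.4% with a pseudocount of 0.1, 61.1% with no filter, 56.7% after upper-quartile and 44.3% after median-ratio scaling, 43.9% with limma-voom, 59.3% in the fit of the 6 PEG libraries, 58.8% with the replicate block and 59.2% to 65.9% without 1 library. With the replicate block, 3138 genes were called on control medium, 848 in the interaction and 457 both on PEG and in the interaction, against 5080, 1873 and 920. Without 1 library these counts ran from 3147 to 5719, from 967 to 2076 and from 421 to 1004. On control medium the count was 3147 without WT control library 2. For the interaction it was 1240 without WT control library 3, 967 without WT library 1 on PEG and 1136 without WT library 3 on PEG. Leaving out a library also leaves fewer samples, and other causes were not tested.

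Library numbers match in 2 cases on PEG (1 and 3) and no label gives them a meaning. Number 4 occurs only in overexpressor library 4 on PEG, and number 5 only in overexpressor library 5 on control medium. The replicate block therefore in effect takes these libraries out of the genotype differences and leaves fewer degrees of freedom. Its losses of calls cannot be assigned to pairing. Deviations of same-numbered libraries from their group means correlated at -0.233 to 0.263 over 12 pairs, and at 0.051 and -0.07 for the 2 pairs on PEG, so the libraries were not treated as paired. With the block the PEG calls of Potri.017G018100.v3.1, Potri.011G150400.v3.1 and Potri.011G164200.v3.1 had adjusted p of 0.051, 0.111 and 0.0964, and 12.2% of the genes at least 2-fold lower on PEG were also lower on control medium, against 4.93% of all genes. The counts in lists by product description, planned as a result, were not run. Depth limits genes of few reads, such as those at under 1 FPKM.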

Other observations

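Genes with large differences on PEG were shorter than most. The recovered gene length had a median of 1779 bases over all tested genes, 1276 over the 308 genes at least 2-fold higher and 1235 over the 418 at least 2-fold lower. The mean recovered reads per PEG library had medians of 161, 128 and 187 in the same order. Under the numbered prefixes of the identifiers, the share of tested genes called higher on PEG ran from 7% (prefix 012) to 10.3% (prefix 009), and the share called lower from 3.61% (prefix 013) to 7.39% (prefix 011).

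The large reductions on PEG fell on successive identifiers more often than their share of tested genes, though most did not. Among the 404 genes at least 2-fold lower that have a numbered prefix, the next tested identifier was in the same set for 61 (15.1%), where 1.66% of tested genes were members. For the 298 genes at least 2-fold higher it was in the set for 10 (3.36%), where 1.22% were members. The lower set held 13 runs of 3 or more successive tested identifiers, with 50 genes under 9 prefixes, and the higher set held 0. The 50 genes had a median log2 difference of -2.2 on PEG and of -0.02 on control medium. The longest run had 5 genes with differences of -2.56 to -1.22 on PEG. Their means were 4.07 to 14.3 FPKM in WT and 0.794 to 2.42 FPKM in PuC3H35-OE on PEG, and 0 of them were called on control medium. The recovered lengths of these 5 genes all differed, and 1 of the 61 successive pairs had equal lengths. Reads shared between similar neighbours could not be told apart from separate expression, and their part in these runs was not tested.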
